A study of Mus musculus with 12 samples.

Results

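The mRNAs of Camk2a, Nrgn, Ddn, Shank1, Shank3, Dlg4 and Map2, which encode proteins of dendrites and of the postsynaptic side of excitatory synapses, were followed with age in RNA from a myelin-enriched fraction of mouse brain. They were taken by symbol from the deposited table, where Map2 stands under its older symbol Mtap2. These were 7 of the 21937 genes listed, and all 7 passed the filter on low values. The fraction was a light-weight membrane preparation of brains of male wild type (WT) c57Bl6/N mice, with no mutation or treatment at any age. Mice were taken at 4 ages, with 3 samples at each: P18 and P75 (18 and 75 days after birth), 6 months, and 24 months. The labels do not say whether the samples of an age came from separate animals, so p-values measure only the spread between these samples, which may be technical.

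Dendrites are the receiving branches of neurons. Some mRNAs are packed with RNA-binding proteins, carried along microtubules into dendrites and translated near synapses. Camk2a mRNA, which is directed there by its 3′ untranslated region (UTR), is the classic example, and Map2 was among the earliest dendritic mRNAs described. Under the membrane of an excitatory synapse lies the postsynaptic density, in which scaffold proteins tie glutamate receptors to kinases and to the actin skeleton. Camk2a encodes the alpha subunit of calcium/calmodulin-dependent kinase II. Nrgn encodes neurogranin, a small protein that holds calmodulin when calcium is low. Dlg4 encodes PSD-95, the scaffold that lies next to the receptors, and Shank1 and Shank3 encode deeper scaffolds that link it to actin through other proteins. Ddn encodes dendrin, a protein of dendrites and spines, and Map2 encodes a protein that binds microtubules in cell bodies and dendrites. All 7 are known as genes of neurons, and the fraction was enriched for myelin, which oligodendrocytes form around axons.

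RefSeq promoter windows (build GRCm38.p6, 250 bases before the annotated start) were in the table for 4 of the 7 members: Nrgn, Shank3, Dlg4 and Map2. Those of Nrgn, Dlg4 and Shank3 are shown, 5′ to 3′ on the gene's strand, because these members were lower at P75 than at P18. Bases that GENCODE places in an exon are left out, and capitals mark GC boxes, the letters GGGCGG on either strand.
Nrgn, chr9:37552905-37552995, minus strand: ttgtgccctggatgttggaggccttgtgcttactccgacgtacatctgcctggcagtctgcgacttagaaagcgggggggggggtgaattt
Dlg4, chr11:70018355-70018440, plus strand: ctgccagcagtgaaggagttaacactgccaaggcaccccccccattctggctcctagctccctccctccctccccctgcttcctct
Shank3, chr15:89499358-89499607, plus strand: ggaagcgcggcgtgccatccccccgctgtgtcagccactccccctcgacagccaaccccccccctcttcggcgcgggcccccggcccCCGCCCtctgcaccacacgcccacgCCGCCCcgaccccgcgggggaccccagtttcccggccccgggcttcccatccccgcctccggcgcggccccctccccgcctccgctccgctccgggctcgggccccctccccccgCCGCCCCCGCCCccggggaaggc
The whole window of 250 bases held 1 GC box in Nrgn, 0 in Dlg4, 4 in Shank3 and 5 in Map2, and 32.7% of all 32851 windows held at least 1. In Shank3 the last 2 of the 4 adjoin. Only 91 of the 250 bases in Nrgn, 86 in Dlg4 and 194 in Map2 come before the first exon that GENCODE places in the window. The GC box of Nrgn was not among those 91 bases, so the counts and the G and C content below partly describe bases past an exon start. The table held 3 windows for Dlg4, of which the nearest to the principal transcript was used, and the Map2 window lies 146390 bases from the principal transcript's start. No TATA box (TATAAA) and no cyclic AMP response element (TGACGTCA) was found on either strand in the 4 windows, against 12.4% and 1.55% of all windows. The windows were rich in G and C, with 58.4% in Nrgn, 68.0% in Dlg4, 82.4% in Shank3 and 81.2% in Map2 beside a median of 52.4% over all windows. A match or its lack describes these letters only, and says nothing of which factors bind.

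The principal transcripts of the 7 genes in GENCODE M21 (build GRCm38, whereas the authors used mm9) differ in length and in the extent of their 3′ UTR. Camk2a lies at chr18:60925618-60988152 on the plus strand and its transcript has 4970 bases, 67.9% of them in the 3′ UTR. Nrgn lies at chr9:37544492-37552904 on the minus strand and has the shortest of these transcripts, of 1453 bases, 59.6% of them 3′ UTR. The transcript of Ddn, at chr15:98803777-98807925 on the minus strand, has 3745 bases. Those of Shank1, at chr7:44310253-44360572, and of Shank3, at chr15:89499857-89560261, both on the plus strand, have 9826 and 7131 bases. Dlg4, at chr11:70018444-70045532 on the plus strand, has 3488 bases, and Map2, at chr1:66321719-66439188 on the plus strand, has 6258. Exons of Ddn, Shank1, Shank3 and Map2 overlap those of a gene on the opposite strand over 4.68%, 3.22%, 2.95% and 0.754% of their exon length, and because the strand setting of the counting is not given in the sources used here, reads there cannot be assigned.

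Levels are given as normalised read counts: the reads counted for a gene in a sample, divided by the authors' size factor for that sample. Between 20299052 and 27214385 reads were counted per sample, and 16949 to 17261 genes were detected. Of the lists examined here, that of myelin held most: 12 oligodendrocyte and myelin genes that include Mbp and Cnp, the defining markers of the fraction, took 10.3% to 22.3% of all normalised counts in the P18 samples, 5.39% to 7.84% in those of P75, 6.03% to 9.58% in those of 6 months and 6.27% to 8.50% in those of 24 months. The 7 members together took 0.303%, 0.293% and 0.434% in the P18 samples, 0.284%, 0.286% and 0.229% in the P75 samples, 0.390%, 0.359% and 0.375% in the 6-month samples, and 0.259%, 0.284% and 0.307% in the 24-month samples. The 6-month samples lay above all of those at P75 and 24 months, whereas the range at P18 overlapped those of 6 and 24 months. In bulk RNA of a fraction, fewer cells or processes of a type and less RNA in each cannot be told apart.

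The kinase and its calmodulin partner took different courses: Nrgn fell at P75, and Camk2a rose at 6 months. For Nrgn, the normalised read count was 21766, 22530 and 33329 in the P18 samples, 12301, 14193 and 11067 in the P75 samples, 9366, 11599 and 12411 in the 6-month samples, and 9563, 9637 and 11993 in the 24-month samples. All 3 P18 samples were above all 9 later ones, and the ranges of the later ages overlapped. At P75 Nrgn averaged 12520 ± 1575 against 25875 ± 6467 at P18 (SD, n = 3 each), a log2 fold change of -1.03 ± 0.16 (SE; adjusted p = 0.000119). The changes after P75 were -0.17 ± 0.16 at 6 months against P75 and -0.10 ± 0.16 at 24 months against 6 months (log2, SE), and neither passed the test. The P18 mean rests in part on the third sample, but the other 2 were also above every later value.

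Camk2a had 17135, 19033 and 24905 normalised counts at P18, 20095, 19460 and 13044 at P75, 31433, 33039 and 29152 at 6 months, and 21425, 23776 and 23118 at 24 months. The 6-month samples were above the 9 others, and the P18 samples overlapped both those of P75 and those of 24 months. Camk2a rose at 6 months to 31208 ± 1953, against 17533 ± 3901 at P75 (SD, n = 3 each), a log2 fold change of 0.86 ± 0.16 (SE; adjusted p = 0.000374). At 24 months it averaged 22773 ± 1213, against 31208 ± 1953 at 6 months, and this change of -0.45 ± 0.16 (log2, SE) missed the threshold (adjusted p = 0.0601) although the ranges did not overlap. P75 against P18 gave -0.22 ± 0.16 (log2, SE; adjusted p = 0.292).

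Among the scaffolds, Dlg4, Shank3 and Shank1 were all lower at P75 than at P18, and at 6 months the Shank genes rose and Dlg4 did not pass the test. Dlg4 had 13609, 14233 and 16254 normalised counts at P18, 8947, 9529 and 7007 at P75, 8718, 9316 and 9001 at 6 months, and 7158, 7151 and 7601 at 24 months. As for Nrgn, every P18 sample was above every later sample, and the ranges at P75 overlapped those at 6 and 24 months. Dlg4 averaged 8494 ± 1321 at P75 against 14699 ± 1382 at P18 (SD, n = 3 each), a log2 fold change of -0.80 ± 0.11 (SE; adjusted p = 4.53e-05). The change from there was 0.10 ± 0.11 at 6 months against P75 and -0.30 ± 0.11 at 24 months against 6 months (log2, SE; adjusted p = 0.485 and 0.0667).

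Shank3 had 1940, 2270 and 2720 normalised counts at P18, 1759, 1689 and 1285 at P75, 2844, 2988 and 2640 at 6 months, and 2219, 2361 and 2481 at 24 months. The P75 samples were the 3 lowest of the 12, and the P18 samples overlapped those of 6 and 24 months. Its log2 fold change was -0.55 ± 0.12 at P75 against P18 (adjusted p = 0.00226) and 0.85 ± 0.12 at 6 months against P75 (SE; adjusted p = 3.56e-05). The difference of 24 months against 6 months, -0.26 ± 0.12 on the log2 scale (SE), did not pass (adjusted p = 0.147).

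Shank1 had the largest log2 fold change of the 7 in each comparison of consecutive ages. It had 696, 763 and 822 normalised counts at P18, 475, 342 and 217 at P75, 2291, 1945 and 1803 at 6 months, and 1068, 1188 and 1413 at 24 months. The ranges of the 4 ages did not overlap, in the order P75, P18, 24 months and 6 months from low to high. Shank1 averaged 345 ± 129 at P75 against 760 ± 62.7 at P18, and 2013 ± 251 at 6 months against the same P75 samples (SD, n = 3 each). The log2 fold changes were -1.21 ± 0.20 (adjusted p = 0.000156) and 2.61 ± 0.20 (SE; adjusted p = 8.40e-08), which for 6 months against P75 is a 6.09-fold difference. At 24 months it fell to 1223 ± 175, against 2013 ± 251 at 6 months, a log2 fold change of -0.72 ± 0.20 (SE; adjusted p = 0.0189), and it was above P18 by 0.68 ± 0.20 on the log2 scale (adjusted p = 0.00633).

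Ddn and Map2 did not pass the test at P75 against P18 and rose at 6 months. Ddn had 6031, 7474 and 7682 normalised counts at P18, 8705, 6967 and 5335 at P75, 12238, 12470 and 12047 at 6 months, and 8284, 9180 and 9857 at 24 months. The P75 samples spanned all those at P18, and the 6-month samples were both highest and closest together. Ddn averaged 12252 ± 212 at 6 months against 7002 ± 1685 at P75 (SD, n = 3 each), a log2 fold change of 0.84 ± 0.14 (SE; adjusted p = 0.000153). At 24 months the log2 fold change was -0.43 ± 0.14 against 6 months (adjusted p = 0.0450) and 0.37 ± 0.14 against P18 (SE; adjusted p = 0.0327).

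Map2, by its largest log2 fold change, varied least of the 7. It had 12977, 12388 and 12193 normalised counts at P18, 12393, 11793 and 13471 at P75, 17804, 15329 and 16096 at 6 months, and 12161, 13015 and 13209 at 24 months. The 6-month samples stood above the 9 others, which ran together. Map2 averaged 16410 ± 1267 at 6 months against 12552 ± 851 at P75 (SD, n = 3 each), a log2 fold change of 0.39 ± 0.097 (SE; adjusted p = 0.00333), and was lower again at 24 months by a log2 fold change of -0.36 ± 0.097 (SE; adjusted p = 0.0192). The difference of P75 against P18 was 0.0021 ± 0.097 on the log2 scale (SE; adjusted p = 0.990).

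**Figure D1:**
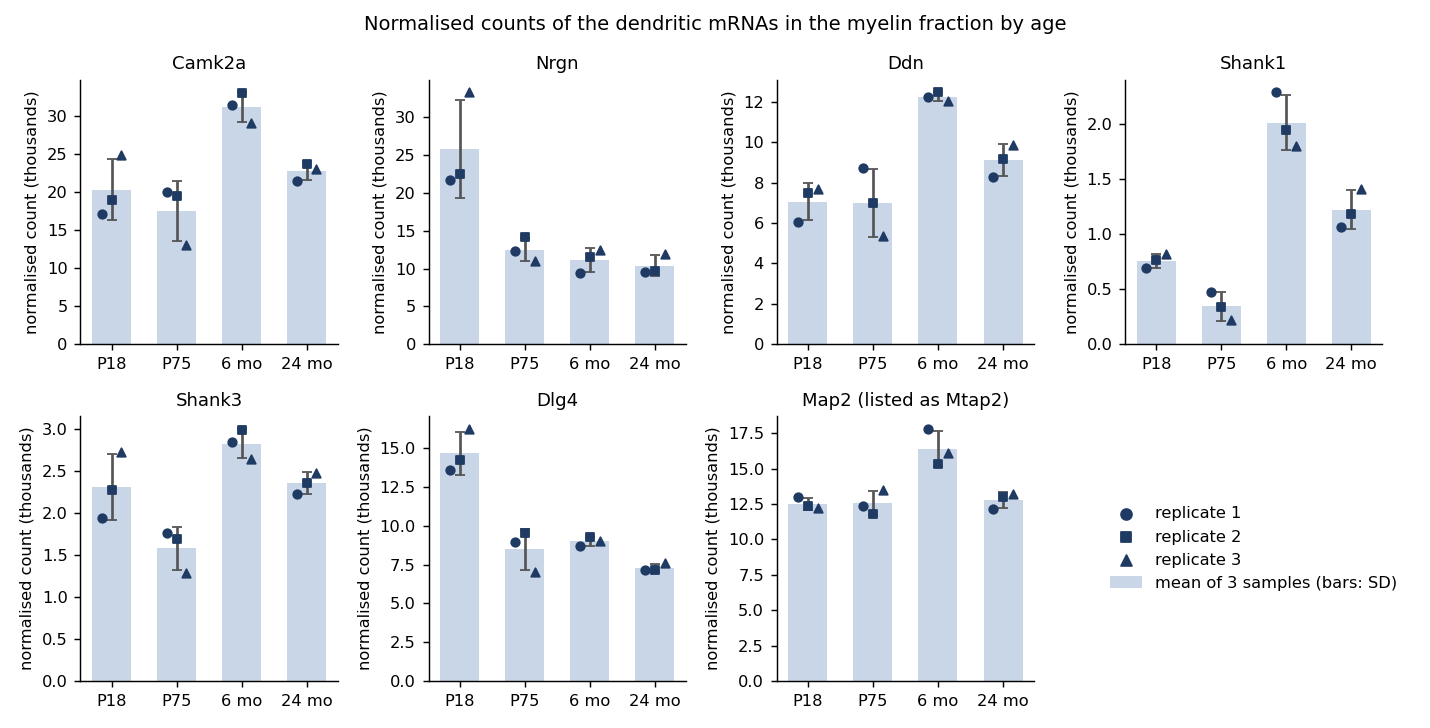
Normalised read counts of the 7 genes in each of the 12 samples, 1 panel per gene, with age on the horizontal axis, points for samples, bars from 0 for the mean of 3 samples and error bars for the SD. Nrgn and Dlg4 are highest at P18, Shank1 is lowest at P75 and highest at 6 months, and Camk2a, Ddn, Shank3 and Map2 have their highest mean at 6 months.

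The members' counts of calls were set beside those of all genes tested. The moderated F test over the ages called all 7 members, where it called 77.4% of all genes, with adjusted p between 5.69e-08 for Shank1 and 0.00378 for Map2. At P75 against P18, 4 of 7 members were lower and 0 higher, where 40.4% of genes were called, 18.7% lower and 21.7% higher, and the members' median log2 fold change was -0.55 beside 0.017 over all genes. At 6 months against P75, 5 of 7 were higher and 0 lower, where 52.4% were called, 27.1% higher and 25.4% lower, with a members' median of 0.84. For 24 months against 6 months, 3 of 7 were lower and 0 higher, where 19.2% were called, 8.34% lower and 10.8% higher, with a members' median of -0.36 beside 0.030. Over the whole span, 24 months against P18, Shank1 and Ddn were higher and Nrgn and Dlg4 lower, where 62.5% of genes were called, 32% higher and 30.5% lower. Consecutive comparisons share the samples of the middle age, and the last shares samples with the first and the third, so a high or low set of samples at P75 or 6 months enters more than a single comparison.

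**Figure D2:**
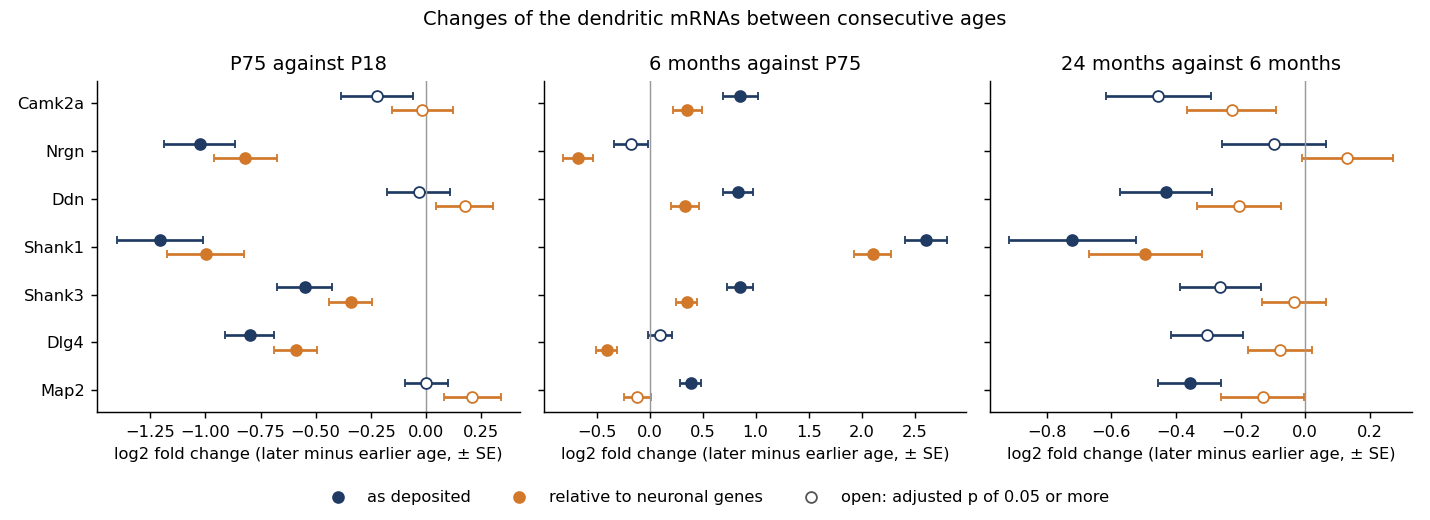
Log2 fold changes of the 7 genes (horizontal axis, later minus earlier age, error bars for the SE) in the 3 comparisons of consecutive ages, as deposited and relative to neuronal genes, with filled points for adjusted p under 0.05. As deposited, Shank1 spans from -1.21 at P75 against P18 to 2.61 at 6 months against P75, and Map2 stays within 0.39 of 0.

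The calls of 24 months against 6 months depended on single libraries. Without the first 6-month library, or without the first or the second 24-month library, 0 of 7 members passed, and without the second 6-month library 1 did. The genes called among all genes fell as well, to 1279, 1527, 1244 and 1499 in these fits in the same order, against 2876 with all libraries. Shank1 then had log2 fold changes of -0.62, -0.63, -0.70 and -0.74, with adjusted p from 0.0506 to 0.0890. Ddn lost its call in each fit that left out a library of 6 months or 24 months (adjusted p 0.0550 to 0.156), and also without the second P18 or the second P75 library (0.0502 and 0.0577), and Map2 lost it without the first 6-month or the first or second 24-month library (0.0611 to 0.0805). Without the third P18 or the third P75 library, Camk2a (adjusted p = 0.0219 and 0.0276) and Dlg4 (0.0337 and 0.0314) passed and 5 members were called. The genes called among all genes rose as well, to 3963 (26.4%) and 3045 (20.3%), against 2876 (19.2%) with all libraries. The higher level of Ddn at 24 months against P18 lost its call without the first P18 library (log2 fold change 0.26, adjusted p = 0.155), without the second 24-month library (0.36, 0.0774) and without the third (0.31, 0.113), and also when samples were rescaled without Mbp (0.30, 0.0769). The calls of P75 against P18 and of 6 months against P75 held in every fit that left out a library.

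Genes of neurons in general also differed with age. Of 25 presynaptic and general neuronal genes, 14 were lower and 3 higher at P75 against P18, 17 higher and 3 lower at 6 months against P75, and 9 lower and 0 higher at 24 months against 6 months, with median log2 fold changes of -0.34, 0.46 and -0.25. Their summed share of normalised counts was 1.18% to 1.64% in the P18 samples, 1.38% to 1.57% in those of P75, 1.49% to 1.71% in those of 6 months and 1.32% to 1.52% in those of 24 months, and the ranges of consecutive ages overlapped. By their mean log2 value minus the P18 mean, the measure of the second fit, the 6-month samples (0.25 to 0.34) lay above all those of P75 (-0.34 to -0.095) and of 24 months (-0.0042 to 0.15). The direction of their median was that of the members' median in these 3 comparisons of consecutive ages. At 24 months against P18 it was not: 13 neuronal genes were lower and 7 higher. Their median there was -0.31, beside 0.039 for the members. The synaptic vesicle gene Syt1, the calcium sensor of transmitter release, averaged 19472 ± 2226 at 6 months against 3851 ± 345 at P75 (SD, n = 3 each). Syt1 was named for its low F-test p within the list, and its change was far above the list's median of 0.46. The part of the neuronal share in the members' changes was examined only by a second fit, in which each sample's mean log2 value of these 25 genes was subtracted from all genes.

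Relative to neuronal genes, Shank1, Shank3, Camk2a and Ddn were higher and Nrgn and Dlg4 lower at 6 months against P75, of which the calls of Camk2a and Ddn did not hold in several other fits. Subtracting moved the median log2 fold change of all genes to 0.23 at P75 against P18, -0.50 at 6 months against P75 and 0.26 at 24 months against 6 months. At P75 against P18, Nrgn (-0.82 ± 0.14), Shank1 (-1.0 ± 0.17), Dlg4 (-0.59 ± 0.099) and Shank3 (-0.34 ± 0.099; log2, SE) were again lower, so that 4 of 7 were called, where 40.2% of genes were called, 7.27% lower and 32.9% higher. The mean log2 fold change of the neuronal genes, which the fit subtracts, was -0.21 there, whereas their median was -0.34. Changes relative to that median were not tested. At 6 months against P75, 4 members were higher and 2 lower, where 67.1% of genes were called, 7.12% higher and 60% lower. The higher ones were Shank1 (2.10 ± 0.17, adjusted p = 4.49e-07), Shank3 (0.35 ± 0.099, 0.00587), Camk2a (0.35 ± 0.14, 0.0328) and Ddn (0.33 ± 0.13, 0.0324). Nrgn (-0.68 ± 0.14, adjusted p = 0.000652) and Dlg4 (-0.41 ± 0.099, 0.00213) were lower on this scale, Nrgn below and Dlg4 above the median of all genes, and Map2 did not pass (-0.12, 0.431). The F test called 5 of 7 members, where 84.2% of genes were called, and Camk2a (adjusted p = 0.0842) and Map2 (0.274) were the others.

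Some of these relative calls rested on few libraries. The third P75 library decided 3 of them: without it Camk2a was at 0.22 (adjusted p = 0.158) and Ddn at 0.22 (0.154) at 6 months against P75, and Shank3 at -0.26 (0.0543) at P75 against P18. The 2 calls at 6 months were also lost without any 1 of the 3 libraries of that age, with adjusted p of 0.0519 to 0.103 for Camk2a and 0.0501 to 0.0803 for Ddn, and that of Ddn without the second P75 library (0.0988). They were also lost with a trend on transcript length removed (0.102 for Camk2a, 0.0628 for Ddn), in a fit of only these ages (0.0560 and 0.0515) and with the replicate number as a block (0.0524 and 0.0510), and that of Camk2a with no filter on low values (0.0549). The call of Shank3 at P75 was also lost in a fit of only those ages (0.0622) and with a trend on GC content removed (log2 fold change -0.19, adjusted p = 0.0808). For 24 months against 6 months, Shank1 was the 1 member called (-0.49 ± 0.17, adjusted p = 0.0436), where 30.6% of genes were called, 1.53% lower and 29.1% higher, and the call was lost without the second P18 library, without any 6-month library or without the first or second 24-month library (0.0529 to 0.160). Over the whole span, Nrgn (-1.36) and Dlg4 (-1.07) were lower and Shank1 (0.61) higher at 24 months, where 59.2% of genes were called, 31.7% lower and 27.5% higher. In this comparison the mean log2 fold change of the neuronal genes, which the fit subtracts, was 0.068, whereas their median was -0.31. The values on this scale are thus relative to that mean, and changes relative to the median were not tested.

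The third P75 library stood low for these genes. It was the lowest of its age for 6 of the 7 members, all but Map2, for which it was the highest. Its neuronal genes took 1.39% of normalised counts, between the 1.38% and 1.57% of the other P75 libraries, but their mean log2 value, which the second fit subtracts, was the lowest of its age (-0.34, against -0.19 and -0.095 in the other P75 libraries, each minus the P18 mean). At P18 the third library was the highest for the same 6 members and held 1.64% neuronal counts and 10.3% myelin counts, against 1.18% to 1.30% neuronal and 16.4% to 22.3% myelin counts in the other 2. As deposited, the members called at P75 against P18 and at 6 months against P75 numbered 4 and 5 without either library, as with all.

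**Figure D3:**
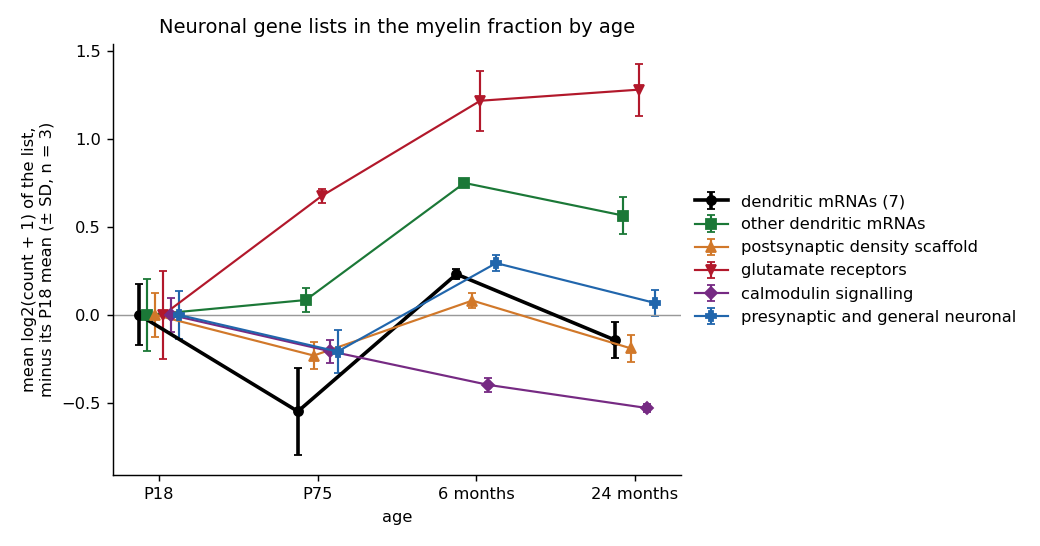
Mean log2(count + 1) of the 7 genes and of 5 other lists by age, minus the mean of that list at P18, with points for the mean and error bars for the SD of 3 samples. The 7 genes lie at -0.55 ± 0.25 at P75 and 0.23 ± 0.029 at 6 months, the neuronal genes at -0.21 ± 0.12 and 0.29 ± 0.044, and the glutamate receptors at 0.68 ± 0.040 and 1.22 ± 0.17.

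Per kilobase of the principal transcript, the levels of the members could be compared with each other. Nrgn led at every age, with means of 17808, 8617, 7657 and 7156 normalised counts per kilobase in order of age. Camk2a had 4096, 3528, 6279 and 4582 at the same ages, and Dlg4 had 4214, 2435, 2584 and 2094. Map2 had 2001, 2006, 2622 and 2045, and Ddn had 1886, 1870, 3272 and 2432. The Shank genes were far lower, with 324, 221, 396 and 330 for Shank3 and 77.4, 35.1, 205 and 124 for Shank1. These values depend on the transcript chosen: the longest Dlg4 transcript has 6326 bases and the principal one 3488.

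Ratios within a sample do not depend on its scaling. These pairs were chosen after their values were seen, and the ratios are a description with no test. Nrgn over Camk2a, per kilobase, was 4.34, 4.05 and 4.58 in the P18 samples, 2.09, 2.49 and 2.90 in the P75 samples, 1.02, 1.2 and 1.46 in the 6-month samples, and 1.53, 1.39 and 1.77 in the 24-month samples. All P18 values were above all P75 values, which were above all those of 6 and 24 months. Per kilobase, Nrgn RNA was thus at least 4.05 times that of Camk2a at P18 and 1.02 to 1.46 times at 6 months. The ratios were not corrected for a trend on transcript length over all genes. At 6 months against P75, the group of shortest transcripts, with Nrgn, had a median log2 fold change of -0.29. That of longest, with Camk2a, had 0.15. With this trend removed, Nrgn had 0.12 in that comparison. The part of the trend in these ratios was not tested.

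Dlg4 over Shank3, per kilobase, averaged 13.1 ± 1.09, 11 ± 0.576, 6.54 ± 0.379 and 6.35 ± 0.215 at the 4 ages in turn (SD, n = 3 each). The samples of P18 lay between 12.2 and 14.3, those of P75 between 10.4 and 11.5, and the others between 6.19 and 6.97. Shank1 over Shank3 was lowest at P75, with 0.196, 0.147 and 0.122, and highest at 6 months, with 0.585, 0.472 and 0.496, beside 0.219 to 0.260 at P18 and 0.349 to 0.414 at 24 months. The ranges of the 4 ages did not overlap. Ddn over Map2 averaged 0.946 ± 0.148, 0.941 ± 0.259, 1.25 ± 0.105 and 1.19 ± 0.055 at the 4 ages in turn (SD, n = 3 each), and its P75 values spanned 0.662 to 1.17.

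**Figure D4:**
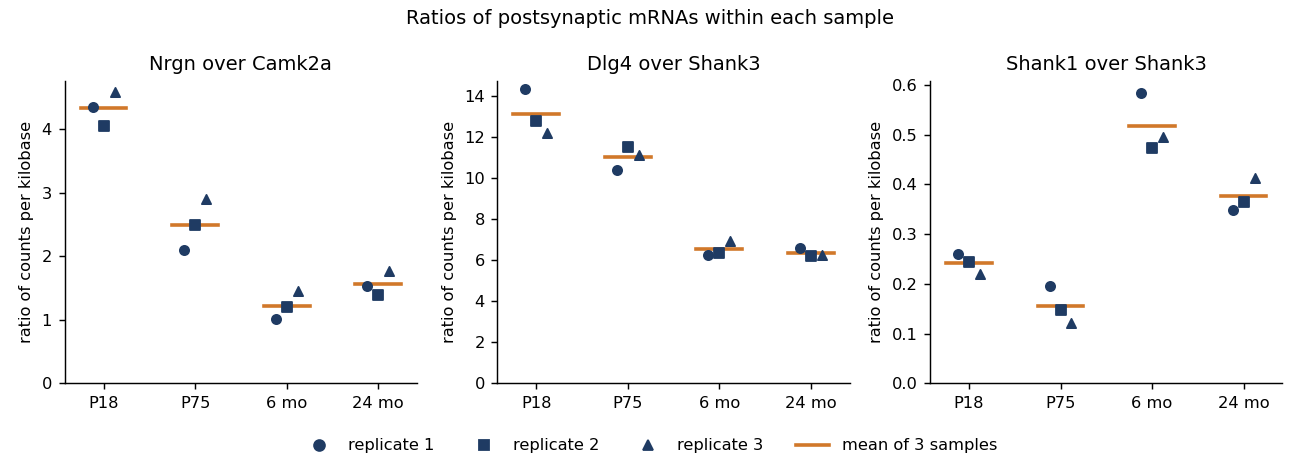
Ratios of pairs of members within each sample, per kilobase of transcript, by age, with points for samples and lines for the mean of 3. Nrgn over Camk2a and Dlg4 over Shank3 are highest at P18, and Shank1 over Shank3 is lowest at P75 and highest at 6 months.

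Other genes of dendrites and synapses are given as whole lists, with their counts and medians. Of 12 further dendritic mRNAs, 3 were higher and 3 lower at P75 against P18, 10 higher and 0 lower at 6 months against P75, and 2 lower and 0 higher at 24 months against 6 months, with medians of -0.04, 0.69 and -0.20. Itpr1, the calcium channel of the endoplasmic reticulum, averaged 3701 ± 598 in the P18 samples, 8453 ± 712 in those of P75 and 13550 ± 1747 in those of 6 months (SD, n = 3 each), with log2 fold changes of 1.2 ± 0.12 and 0.68 ± 0.12 (SE; adjusted p = 2.54e-06 and 0.000223). It rose at P75, where Shank1 fell. Kcnd2, a potassium channel of dendrites, rose by 0.77 ± 0.11 at P75, and Ntrk2, the receptor of the growth factor BDNF, by 0.74 ± 0.09 at 6 months (log2, SE).

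Of 19 further scaffolds and proteins of the postsynaptic density, 9 were lower and 1 higher at P75 against P18, 13 higher and 2 lower at 6 months against P75, 5 lower and 0 higher at 24 months against 6 months, and 11 lower and 2 higher at 24 months against P18, with medians of -0.28, 0.40, -0.30 and -0.25. Dlg2, which encodes PSD-93, a relative of PSD-95, was lower at P75 (-0.51 ± 0.098, adjusted p = 0.000669) and higher at 6 months (0.25 ± 0.098, 0.0383). Anks1b, which encodes another protein of the density, was lower at P75 by a log2 fold change of -0.48 ± 0.092 (adjusted p = 0.000642), and Tanc1, a scaffold that binds PSD-95, was higher at both steps (0.42 ± 0.078 and 0.51 ± 0.078).

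Of 9 glutamate receptors, which these scaffolds anchor, 7 were higher and 0 lower at P75 against P18, 7 higher and 0 lower at 6 months against P75, 3 higher and 1 lower at 24 months against 6 months, and 9 higher at 24 months against P18, with medians of 0.75, 0.41, 0.11 and 1.3. Gria2, a subunit of AMPA receptors, averaged 3315 ± 649, 6350 ± 595, 9154 ± 1149 and 13109 ± 1096 at the 4 ages in turn (SD, n = 3 each). It was higher at 24 months than at P18 by 2.0 ± 0.13 (adjusted p = 2.47e-09), whereas Dlg4 had -1.01 ± 0.11 (log2, SE; adjusted p = 8.87e-07). The metabotropic receptor Grm5 rose by 0.82 ± 0.11 at P75 (log2, SE).

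Of 13 genes of calmodulin signalling, the group of Nrgn and Camk2a, 6 were lower and 2 higher at P75 against P18, 5 lower and 0 higher at 6 months against P75, 3 lower and 0 higher at 24 months against 6 months, and 11 lower and 1 higher at 24 months against P18, with medians of -0.21, -0.17, -0.12 and -0.46. Pcp4, which like neurogranin binds calmodulin through an IQ motif, averaged 27830 ± 2935 in the P18 samples, 22466 ± 1387 in those of P75 and 11247 ± 1252 in those of 6 months (SD, n = 3 each), a log2 fold change of -1.0 ± 0.11 for 6 months against P75 (SE; adjusted p = 3.57e-06). The nuclear kinase Camk4 was lower at each step, by log2 fold changes of -0.50, -0.25 and -0.32, whereas Camk2a rose at 6 months. Camkk2, the kinase that activates Camk4, was lower at P75 by -0.51 ± 0.083 (log2, SE).

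Of 9 microtubule-associated proteins apart from Map2, 3 were lower and 1 higher at P75 against P18, 4 higher and 0 lower at 6 months against P75, and 3 lower and 0 higher at 24 months against 6 months, with medians of -0.04, 0.42 and -0.23. Map1a, the form of mature neurons, had log2 fold changes of -0.04 ± 0.12 at P75 (adjusted p = 0.822), 1.0 ± 0.12 at 6 months (7.73e-06) and -0.53 ± 0.12 at 24 months (SE; 0.00939), each step against the age before it. Map1b also rose at 6 months (0.53 ± 0.098) and fell at 24 months (-0.53 ± 0.098). Of 20 genes of dendritic mRNA transport and translation, 6 were lower and 3 higher at P75 against P18, 12 higher and 1 lower at 6 months against P75, and 5 lower and 0 higher at 24 months against 6 months, with medians of -0.12, 0.36 and -0.18. Among them Cpeb1, a protein that binds the 3′ UTR of Camk2a mRNA, rose at P75 (0.58 ± 0.11) and at 6 months (0.69 ± 0.11; log2, SE).

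Relative to neuronal genes, the medians of 4 of these lists changed sign at 6 months against P75. The postsynaptic density list had 2 higher and 6 lower (median -0.10), the glutamate receptors 2 higher and 2 lower (-0.09), the microtubule-associated proteins 2 higher and 4 lower (-0.08) and the transport and translation list 6 higher and 7 lower (-0.14), beside a median of -0.50 over all genes. The further dendritic mRNAs had 4 higher and 2 lower (median 0.19), and all 13 genes of calmodulin signalling were lower (-0.67), as was Nrgn (-0.68 ± 0.14, SE). At P75 against P18 the glutamate receptors had 8 higher and 0 lower on this scale, whereas Dlg4, Shank1 and Shank3 were lower.

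Markers of the kinds of neuron that could contribute differed among themselves. Of 12 genes of forebrain excitatory neurons, 3 were lower and 1 higher at P75 against P18, and 4 lower and 3 higher at 6 months against P75, and their summed share was 0.101% to 0.162% in the P18 samples, 0.129% to 0.138% in those of P75, 0.159% to 0.187% in those of 6 months and 0.150% to 0.175% in those of 24 months. Slc17a7, a vesicular glutamate transporter, had a log2 fold change of 1.41 ± 0.16 at 6 months against P75, whereas Neurod2 had -0.41 ± 0.12 (SE, adjusted p = 3.27e-06 and 0.00746). Of 9 cerebellar neuron genes, 5 were higher and 1 lower at 6 months against P75, and of 10 striatal neuron genes 6 were higher and 0 lower. Of 10 interneuron genes, 4 were higher and 1 lower at P75 against P18, and 2 higher and 3 lower at 6 months against P75. Oligodendrocyte genes were lower at P75 against P18 in 7 of 12 and higher in 1. At 24 months against 6 months, where 3 members were lower, 6 of 11 microglial genes were higher and 0 lower (median log2 fold change 0.69), and 3 of 5 nuclear-retained RNAs were higher and 0 lower (0.43). Summed, microglial genes took 0.0663% to 0.0856% of counts at 24 months against 0.0478% to 0.0561% at 6 months, and the nuclear RNAs 0.154% to 0.168% against 0.102% to 0.132%. The part of these cell types and of nuclear RNA in the members' changes was not tested.

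Over the 12 samples, the genes whose log2 values were most like the mean of the members were Sec14l1 (Pearson r = 0.981), Dusp8 (0.981), Rbm19 (0.976), Ap2a1 (0.975) and Eef1a2 (0.974), followed by Jph3, Tspyl3, Dlgap3, Cap1 and Rnf157, among 11561 genes with a mean of at least 50. The samples share age groups and libraries, so these values describe and carry no p. Eef1a2, the elongation factor of neurons and muscle, averaged 12064, 7961, 14470 and 9971 at the 4 ages in turn. Dlgap3, which encodes SAPAP3, the protein that joins PSD-95 to Shank proteins, was 1 of the 3 genes nearest to Shank3 (r = 0.978). For single members the nearest were Spnb3, a spectrin, for Camk2a (0.974), Sncb, beta-synuclein, for Nrgn (0.991), Lrrc8b for Ddn (0.976), Ina, a neurofilament protein, for Shank1 (0.994), Carm1 for Shank3 (0.985), Prkaca, the catalytic subunit of protein kinase A, for Dlg4 (0.989), and Jak1 for Map2 (0.970). Sncb averaged 11630, 7180, 6627 and 5994 normalised counts at the 4 ages in turn.

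Transcript length went with the change over all genes in some comparisons. At 6 months against P75, with the genes ranked by length in 4 equal groups, the group of shortest transcripts had a median log2 fold change of -0.29 and that of longest 0.15. By their longest transcripts, Nrgn stood in the shortest group, Ddn in the third, and the other 5 in the longest. With this trend removed, an alternative chosen after seeing the data, 4 members were called at P75 against P18, 5 at 6 months against P75 and 3 at 24 months against 6 months, the same numbers as before, whereas relative to neuronal genes the calls of Camk2a and Ddn at 6 months were lost, as given above. The call of Ddn at 24 months against P18 was lost as well (log2 fold change 0.27, adjusted p = 0.105). The number of all genes called with the length trend removed is not given here, so the counts of members called have no background to be set beside. GC content went with the change at P75 against P18. The group of lowest GC content had a median log2 fold change of 0.10 and that of highest -0.089. Nrgn, Ddn, Shank1 and Shank3 stood in the highest group, and all but Ddn were called lower in this comparison. As deposited, the calls of Nrgn, Shank1 and Shank3 held with the GC trend removed.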

How the data were processed

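RNA from a myelin-enriched fraction of mouse brain was measured in 12 samples, 3 at each of 4 ages. Per the submitters' processing notes, the authors used TopHat, HTSeq and DESeq with build mm9, and versions are not given in the sources used here. The deposited signal value of a gene is its read count over the sample's size factor, written with 2 decimals. The values were tested on the table: 100% were whole multiples of a step within 0.0061, which gave the reads (in 3 columns the step lay within 1% of 1). All columns were used.

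Genes with a value of at least 10 in at least 3 samples were tested (14987 of 21937). Values were taken as log2(value + 1), which understates changes of low genes, and fitted with limma 3.58.1 (trend; R 4.3.3) to all 12 samples in 4 groups. Tests were two-sided, with Benjamini-Hochberg adjustment over all genes and a threshold of 0.05. A second fit subtracted the mean log2 value of 25 neuronal genes per sample. DESeq2 1.42.0 and edgeR 4.0.16 on the recovered read counts were alternatives.

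The members and the lists were chosen with earlier results of these data known. All members were described, and of each other list the 3 genes with the lowest F-test p could be named, of which 1 is not reported here. Genes of like pattern were the 10 with the highest Pearson correlation to the members' mean and the 3 highest for each member. Of the 209 symbols in the members and lists, 207 were found, 9 of them under an older symbol. No sequencing batch is given in the labels, so no value within a batch could be computed. Reads counted from amplified libraries are not independent molecules.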

Additional observations from a re-analysis of the deposited data

How the results depend on the processing

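At P75 against P18 and at 6 months against P75 the number of members called stayed at 4 and 5 in every alternative. At 24 months against 6 months, where 3 were called, 5 were with DESeq2, 6 in a fit of only these ages and 5 with the trend on GC content removed, the last chosen after seeing the data; rescaled without Mbp, 4 were called, and 2 with no filter, with TMM and with the replicate block, each without Ddn. The number of all genes called in each of these settings is not given here, so the members' counts cannot be set beside it. edgeR on the recovered reads called 5982, 7956, 3185 and 9345 genes in the 4 comparisons, where limma called 6051, 7859, 2876 and 9367. Relative to neuronal genes the third comparison called 1 member, and 0 without the filter, with quantile normalization or with the length trend removed. As deposited, leaving out 1 library at a time gave 4 to 4, 5 to 5, 0 to 5 and 3 to 4 members called in the 4 comparisons, and 7 to 7 by the F test. On the same scale the genes called among all genes numbered 5118 to 6335, 6576 to 8520, 1244 to 3963 and 8505 to 9429, and 10947 to 11928 by the F test. Relative to neuronal genes, 3 to 4, 4 to 6, 0 to 1 and 3 to 4 members were called. The number of all genes called in those relative fits is not given here. The members' mean share ran over 0.298% to 0.369% for P18, 0.257% to 0.285% for P75, 0.367% to 0.383% for 6 months and 0.272% to 0.296% for 24 months. Rescaled without Mbp, the share at 6 months was 0.40%.

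The labels' replicate numbers were not treated as pairs in the main fits, and the check made here cannot settle whether they pair the samples. Deviations from the age means correlated between -0.185 and 0.165 over 18 same-number pairs and between -0.149 and 0.189 over the other pairs. Of the 12 samples, 6 correlated best with their own number. Between P75 and 6 months the same-number pairs had r of 0.147, 0.093 and 0.165, and the other pairs lay between -0.132 and -0.028. Deviations within an age cancel for each gene, so positive values in the same-number pairs go with negative ones in the others, and these sets are not independent. With the replicate block, 4, 5, 2 and 4 members were called as deposited and 4, 4, 1 and 3 relative to neuronal genes. The number of all genes called with the block is not given here, so these counts have no background to be set beside.

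Directions changed only for members that did not pass the test, and the cause was not tested. As deposited, P75 against P18 gave a log2 fold change for Ddn of 0.023 with quantile normalization and 0.075 with the GC trend removed, and for Map2 of -0.011 with TMM, -0.0090 with edgeR, -0.028 rescaled without Mbp, -0.069 with the length trend removed and -0.068 with the GC trend removed. For 6 months against P75, removing the length trend gave -0.050 for Dlg4 and 0.12 for Nrgn. For 24 months against P18, Map2 was at -0.036 rescaled without Mbp, -0.13 with the length trend removed and -0.040 with the GC trend removed, and Shank3 at -0.028 and -0.13 in the same order for Mbp and length. Relative to neuronal genes, Camk2a was at 0.0027 (P75 against P18) and Shank3 at 0.12 (24 months against P18) with the GC trend removed, and for 24 months against 6 months the length trend removed gave 0.0053 for Dlg4, -0.0084 for Nrgn and 0.061 for Shank3. Leaving out 1 library moved Ddn over -0.20 to 0.15 and Map2 over -0.050 to 0.046 (P75 against P18), Dlg4 over -0.036 to 0.19 (6 months against P75) and Shank3 over -0.080 to 0.16 (24 months against P18). Relative to neuronal genes, it moved Camk2a over -0.12 to 0.12 (P75 against P18), Nrgn over -0.012 to 0.23 and Shank3 over -0.063 to 0.0087 (24 months against 6 months), and Map2 over -0.13 to 0.045 and Shank3 over -0.092 to 0.021 (24 months against P18).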
